A study of Mus musculus with 4 samples.

Results

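A small set of excitatory nuclei of the mouse cerebral cortex was defined by high counts of Tshz2 together with at least 2 second markers, and 231 nuclei were found among 30515 that passed quality control. A nucleus was taken when it had no more than 7000 detected genes and no more than 1% of its UMIs (molecule tags that let each RNA be counted 1 time) from mitochondrial genes, at least 1 UMI of Slc17a7, none of Gad1, Gad2 and Syt6, 5 or more UMIs of Tshz2, and a UMI of at least 2 of the 6 genes Slc17a6, Tnxb, Robo3, Igdcc3, Itprid1 and Cpa6. These 231 are called Tshz2 nuclei below. The remaining 12647 of the 12878 nuclei that met the conditions on Slc17a7, Gad1, Gad2 and Syt6 are called other excitatory nuclei.

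The nuclei came from 4 Gclc-KO mice, 2 of them 3 months old (called 3M-1 and 3M-2) and 2 of them 6 months old (called 6M-1 and 6M-2), and each mouse gave 1 library of single-nucleus RNA-seq. Where 4 values are listed without names, they follow this order. All 4 mice carried floxed Gclc (C57BL/6NTac-Gclctm1a(EUCOMM)Wtsi/WtsiCnbc) and CaMKII-Cre, a driver active in forebrain excitatory neurons, so the catalytic subunit of the enzyme that starts glutathione synthesis was targeted in neurons at both ages. No treatment was given, the tissue was taken where rod-shaped microglia were abundant, and nuclei were sorted on a DNA stain. No wild-type library was analysed here, so age is the only contrast and a difference between mice of 2 ages cannot be told apart from ageing without the deletion. The labels give each library a batch number that equals its replicate number at both ages.

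Excitatory neurons of the cortex load glutamate into synaptic vesicles mostly with the transporter encoded by Slc17a7 (VGLUT1). Slc17a6 encodes VGLUT2, which dominates in thalamus and brainstem and is low in most of the adult cortex. Tshz2 encodes a zinc finger transcription factor of the teashirt family that is known from near-projecting neurons of layer 5 and from retrosplenial cortex. Robo3 encodes a roundabout receptor of axon guidance, Igdcc3 a membrane protein of the immunoglobulin superfamily, Cpa6 a secreted carboxypeptidase and Tnxb the matrix protein tenascin-X.

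On the mouse assembly GRCm38 none of these genes overlaps another. Tshz2 spans positions 169633013 to 170071816 of chromosome 2 on the plus strand, and Slc17a6 spans 51622006 to 51671119 of chromosome 7, also on the plus strand. Robo3 lies on chromosome 9 from 37415669 to 37433246 (minus strand) and Igdcc3 from 65141189 to 65185872 (plus strand). Cpa6 lies on chromosome 1 from 10324720 to 10719945 on the minus strand.

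The Tshz2 nuclei were unevenly spread over the mice. There were 87 and 68 at 3 months and 27 and 49 at 6 months. As a share of the excitatory nuclei this was 3.02% (95% Wilson interval 2.45 to 3.71%) and 1.63% (1.28 to 2.06%) at 3 months, and 0.918% (0.632 to 1.33%) and 1.71% (1.30 to 2.25%) at 6 months. The 6-month mice lay on both sides of 3M-2, so the ages overlapped. The means were 2.32% and 1.31%, a difference of -1.01 percentage points that an exact two-sided permutation test over the 2 and 2 mice did not separate from their spread (p = 0.667, with 0.333 the smallest it can give). Thinned to 5000 UMIs per nucleus the shares were 1.43%, 0.819%, 0.354% and 0.555% (exact permutation p = 0.333), and the ages no longer overlapped. The share of excitatory nuclei with 5 or more Tshz2 UMIs overlapped between ages, at 17.3%, 13.7%, 12.5% and 17.1%. The share of those nuclei that also had 2 or more second markers did not, at 17.4% and 11.8% against 7.36% and 10.0% (exact permutation p = 0.333). The Wilson intervals cover counting error only, and fewer nuclei of a kind cannot be told apart from less RNA of the rule's genes per nucleus.

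**Figure D1:**
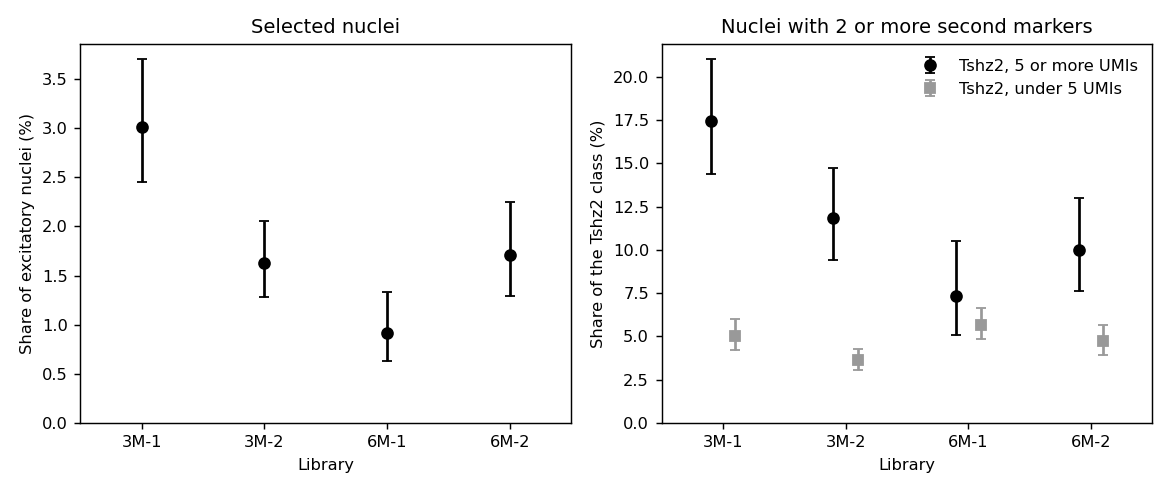
Left, share of the excitatory nuclei (%) that were Tshz2 nuclei in each library, with 95% Wilson intervals; 3M-1 is highest at 3.02% and 6M-1 lowest at 0.918%. Right, share of nuclei with 2 or more second markers among those with 5 or more and with fewer than 5 Tshz2 UMIs; the intervals of the 2 classes overlap in 6M-1.

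The 4 libraries differed in depth. After quality control they held 63194878, 62574289, 65894316 and 59262228 UMIs, and the summed Tshz2 nuclei gave between 426302 UMIs in 6M-1 and 1037476 UMIs in 3M-1. The median Tshz2 nucleus held 10227, 7296.5, 12603 and 12561 UMIs, against 11756.5, 7993.5, 10220.5 and 10587 in other excitatory nuclei. Scrublet called 4, 9, 5 and 6 of the Tshz2 nuclei doublets, which is 4.60%, 13.2%, 18.5% and 12.2% of them, against 3.47%, 6.00%, 9.18% and 8.54% of all nuclei of the excitatory gate. Over all nuclei 93 barcodes occurred in more than 1 library, and 2 of the Tshz2 nuclei had a barcode that was also found in another library.

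The values that chose the nuclei are given here as a description. A Tshz2 nucleus held a median of 19 Tshz2 UMIs, from 5 to 88, and by library the medians were 21, 14, 21 and 23. At the limit, 7 nuclei had exactly 5 Tshz2 UMIs, and 8 nuclei with 2 second markers were left out with exactly 4. The second markers decided far more: 153 of the 231 nuclei had exactly 2 of them, 56 had 3, 16 had 4 and 6 had 5, while 532 nuclei with enough Tshz2 were left out with exactly 1. Another 62 nuclei met every condition but had no Slc17a7 UMI, 24 had Gad1 or Gad2, and 9 had Syt6.

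The label of a Tshz2 Slc17a6 neuron fitted these nuclei in part. Slc17a6 was detected in 130 of the 231 and was absent in the remaining 101. By library, 58.6%, 52.9%, 55.6% and 57.1% of the Tshz2 nuclei had a Slc17a6 UMI, against 7.18%, 6.68%, 6.62% and 4.79% of other excitatory nuclei and at most 1.00% of St18 nuclei (oligodendrocyte lineage), whose median depth was 2269 to 3135 UMIs. Thinned to 5000 UMIs per nucleus, the shares were 30.5%, 28.8%, 18.5% and 31.3% in Tshz2 nuclei and 2.72 to 3.93% in other excitatory nuclei. Slc17a7 was present by rule, at 239.0, 281.1, 178.3 and 206.6 CPM, the UMIs of a gene per 1000000 UMIs of the summed nuclei of a library. Only 9 nuclei carried Slc17a6, Robo3, Igdcc3 and Cpa6 at once, so the 5 marker genes of the label were rarely seen together in a nucleus at this depth.

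**Figure D2:**
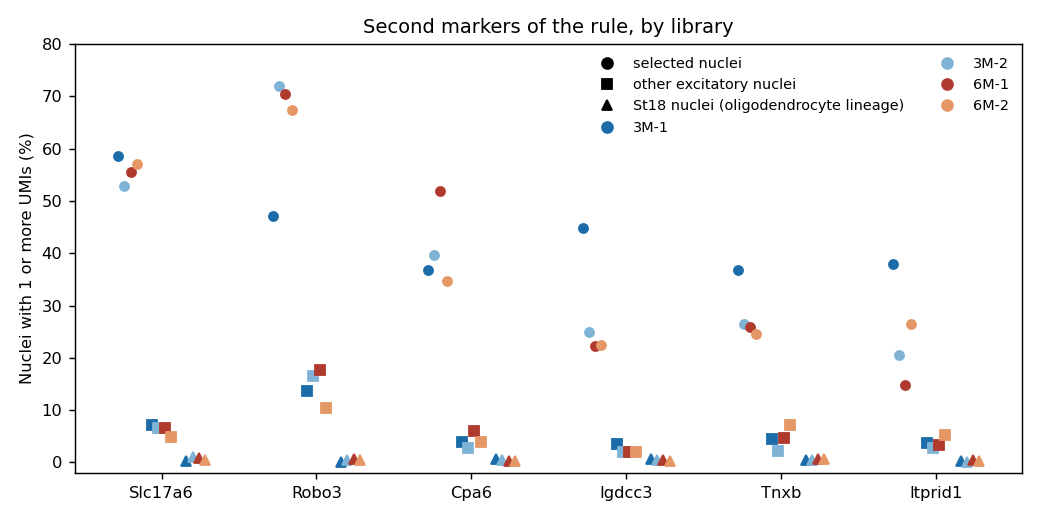
Share of nuclei (%) with at least 1 UMI of each second marker, by library (colours), in Tshz2 nuclei (circles), other excitatory nuclei (squares) and St18 nuclei (triangles). Robo3 was the most often detected in 3 of 4 libraries and Slc17a6 in 3M-1; St18 nuclei stayed at or below 1.00% for all 6 genes.

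Second markers were also found in nuclei with little Tshz2, less often in all 4 libraries and by the least in 6M-1. Among nuclei with 5 or more Tshz2 UMIs, 17.4%, 11.8%, 7.36% and 10.0% had 2 or more second markers, against 5.03%, 3.63%, 5.67% and 4.71% of those with fewer. The median depth of the 2 classes was alike in each library, for example 10583 and 10173.5 UMIs in 6M-1. At the share of the low class, the 1931 nuclei with 5 or more Tshz2 UMIs would have held 89.9 nuclei with 2 second markers, where 231 were found. In 6M-1 this figure is 20.8 of the 27 found, and in 3M-1 25.1 of 87. With 3 or more second markers it is 8.19 of the 78 found. The number found was above this figure in all 4 libraries, by the least in 6M-1, and the set is described by its rule and not as a named cell type.

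Markers of the types in which Tshz2 is known gave a mixed picture. The 8 near-projecting layer 5 markers besides the rule's genes summed to 174.5, 131.8, 391.7 and 266.0 CPM, against 138.5, 129.6, 139.9 and 159.8 CPM in other excitatory nuclei. The sum was thus higher in all 4 libraries, by little in 3M-2. The 4 of them with at least 20 CPM had a median log2 ratio of 0.78, beside -0.003 over all genes, and none was 2-fold higher in all 4 libraries. The most abundant, Vwc2l, stood at 91.6, 68.8, 159.5 and 128.8 CPM, above 54.7 ± 10.4 CPM (mean ± SD, n = 4) in other excitatory nuclei. Lypd1 stood at 33.7, 24.9, 154.8 and 36.8 CPM, high in 6M-1 alone, where 1 nucleus gave 28 of its 66 UMIs. Stac stood at 25.1, 5.86, 23.5 and 58.0 CPM against 13.5 ± 3.995 CPM, Crym at 20.8 ± 9.70 CPM against 28.2 ± 5.63 CPM, and Rapgef3 at 4.50 ± 3.45 CPM against 4.99 ± 0.568 CPM. The defining Slc17a8 and Sla2 were near 0, at 1.41 ± 2.23 and 0.595 ± 0.711 CPM, and Trhr (the receptor of thyrotropin-releasing hormone), at 10.8 ± 10.2 CPM, was as low as in other excitatory nuclei (10.0 ± 2.74 CPM). The 4 retrosplenial markers summed to 14.46, 5.86, 0 and 9.90 CPM, against 3.67, 3.39, 3.12 and 3.93 CPM in other excitatory nuclei, higher in 3 of 4 libraries and at 0 in 6M-1. Cxcl14, the most abundant, had 13, 3, 0 and 2 UMIs and was found in 11.5%, 2.94%, 0% and 4.08% of the Tshz2 nuclei, against 1.22%, 0.899%, 0.858% and 1.38% of the others and 0.301 to 1.5% of St18 nuclei. C1ql2, Scnn1a and Cbln1 averaged 1.31, 0.948 and 0.354 CPM, against 0.300, 1.503 and 0.661 CPM.

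General cortical excitatory genes were at ordinary levels as a group. Of 10 measured genes of this kind none passed 2-fold against the others in all 4 libraries, and their median log2 ratio was -0.03. Neurod6, of the same list, was higher in the 3-month Tshz2 nuclei, at 79.0 and 106.9 CPM against 29.0 and 42.3 CPM. At 6 months it stood at 37.5 and 45.3 CPM against 35.3 and 44.2 CPM. Camk2a, whose promoter drives the Cre, stood at 966.8, 912.2, 673.2 and 863.1 CPM, against 760.3 ± 91.3 CPM in the others. Of 8 genes of subcortical glutamatergic neurons, Rora, which cortical neurons also express, stood at 1259 ± 254.3 CPM against 1204 ± 149.6 CPM and made up nearly all of the list's sum of 1122, 1258, 1626 and 1078 CPM. Of the others, Tcf7l2 stood at 1.78 ± 1.24 CPM, Prkcd at 1.91 ± 1.76 CPM and Lhx9 at 0.241 ± 0.482 CPM, and Pou4f1 had no UMI. Of other cell types, the summed oligodendrocyte markers, led by Mbp, stood at 146.5, 175.7, 344.8 and 271.7 CPM. Other excitatory nuclei held 222.9, 224.9, 387.5 and 456.0 CPM. Astrocyte markers, led by Slc1a2, stood at 129.2, 291.4, 159.5 and 155.6 CPM, against 318.1, 398.2, 409.4 and 414.0 CPM. Both sums were lower in the Tshz2 nuclei in all 4 libraries. Microglial markers, led by P2ry12, stood at 95.4, 178.6, 133.7 and 171.2 CPM, against 98.2, 130.7, 187.1 and 173.0 CPM, higher in 3M-2 only.

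Within the set, the second markers fell into combinations. Robo3 was found in 142 of the 231 nuclei and Cpa6 in 90, with both in 62. Itprid1 was found in 64 nuclei but together with Robo3 in only 18, which is 12.7% of the Robo3 nuclei and 28.1% of the Itprid1 nuclei. Tnxb (69 nuclei) and Igdcc3 (73) were found with Itprid1 in 24 and 23. Since every nucleus had to carry at least 2 of the 6 genes, these pairs are not free to vary and are given without a test.

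Of the 231 nuclei, 81 carried Robo3 or Cpa6 and none of Igdcc3, Itprid1 and Tnxb, 61 carried the latter without the former, and 89 carried both kinds. The first combination made up 20.7%, 42.6%, 51.9% and 40.8% of the Tshz2 nuclei. The second made up 37.9%, 22.1%, 7.41% and 22.4%. The mix of 3M-1 and 6M-1 therefore lay furthest apart, while 3M-2 and 6M-2 were alike. As a share of excitatory nuclei, the Robo3 or Cpa6 nuclei alone stood at 0.624%, 0.693%, 0.476% and 0.697%, and the ages overlapped. Their Wilson intervals were wide, for example 0.284 to 0.797% in 6M-1.

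**Figure D3:**
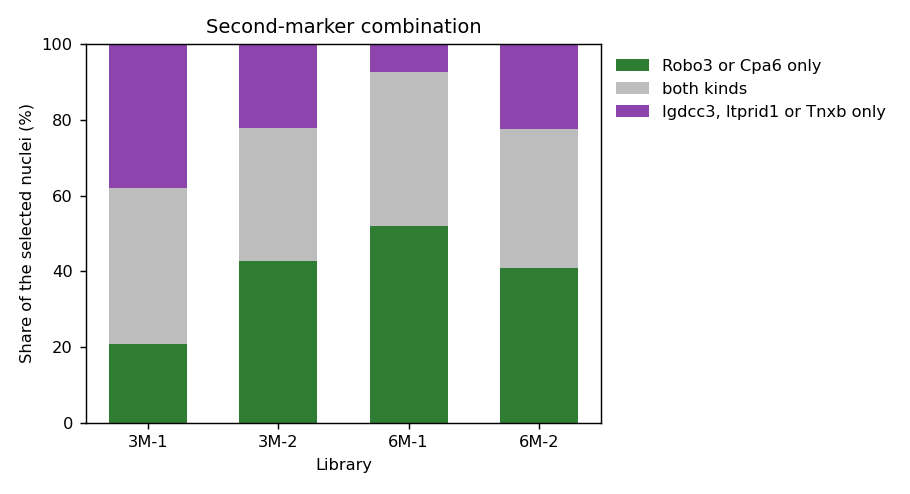
Share (%) of the Tshz2 nuclei of each library by second-marker combination. Nuclei with Igdcc3, Itprid1 or Tnxb only made up 37.9% in 3M-1 and 7.41% (2 nuclei) in 6M-1.

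Npnt, Hs3st4 and Cadps2, which the rule had not used, are given here by combination. How many of all genes differ in the same way was not counted. Npnt, which encodes the integrin ligand nephronectin, stood at 59.4, 67.1, 57.2 and 26.6 CPM in nuclei with Robo3 or Cpa6 only and at 3.60, 6.82, 0 and 0 CPM (2 UMIs in all) in nuclei with Igdcc3, Itprid1 or Tnxb only. Npnt was thus lower in the latter combination in each library, which in 6M-1 held only 45496 UMIs. Hs3st4, a heparan sulfate sulfotransferase of deep layers, stood at 228.8, 208.4, 223.5 and 162.8 CPM in the former and at 172.7, 981.8, 659.4 and 911.5 CPM in the latter, so that 3M-1 departed from the order of the other libraries. Cadps2, which acts in exocytosis of dense-core vesicles, had a mean of 379.2 ± 191.8 CPM in the former and 128.3 ± 66.7 CPM in the latter. Few nuclei stand behind these sums, with as few as 2 in 6M-1, and no test was run.

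Against other excitatory nuclei of the same library, 17 genes besides those of the rule were at least 2-fold higher in the Tshz2 nuclei of all 4 libraries, of 7164 genes with a mean of at least 20 CPM in either class (0.237%). A further 11 were at least 2-fold lower in all 4 (0.154%). Because the nuclei were chosen for genes that co-vary with these, the profile is a description with no test.

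Npsr1, Npnt and Coro6 were among the 4 genes with the highest ratio in the library nearest to equality. Npsr1, the receptor of neuropeptide S, stood at 112.8, 114.2, 129.0 and 99.0 CPM in the Tshz2 nuclei and at 16.8, 19.0, 25.4 and 21.6 CPM in the others. Its level was even between libraries but not between nuclei, since 17, 5, 5 and 7 nuclei carried all its UMIs and 1 nucleus gave 63 of 78 in 3M-2. Npnt stood at 42.4, 54.2, 49.3 and 26.9 CPM against 7.76 ± 2.27 CPM, and was spread over 20, 23, 12 and 9 nuclei. Coro6, an actin-binding coronin, stood at 121.4, 102.5, 110.3 and 101.9 CPM against 26.3 ± 5.80 CPM, 4.14-fold in the means, and was found in 48.1 to 55.2% of the Tshz2 nuclei of each library. Coro6 was thus the most evenly shared of these 3 genes.

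Fn1, which encodes fibronectin and marks subicular neurons among other cells, stood at 18.3, 8.79, 7.04 and 48.1 CPM against 3.11 ± 1.09 CPM, and in 6M-1 its 3 UMIs came from 1 nucleus. Sncaip (synphilin-1, a partner of alpha-synuclein) stood at 82.9, 52.7, 35.2 and 34.0 CPM against 13.6 ± 3.41 CPM. The synaptic vesicle protein gene Sv2c stood at 44.3, 67.4, 49.3 and 52.4 CPM against 15.7 ± 2.57 CPM. Sncaip was higher in both 3-month than in both 6-month libraries, and Sv2c was even.

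Glra3 and Chrm2 were further down this order. Glra3, the alpha-3 subunit of the glycine receptor, stood at 59.8, 52.7, 58.6 and 59.4 CPM against 20.02 ± 4.96 CPM. Chrm2, a muscarinic acetylcholine receptor, stood at 189.9, 197.7, 126.7 and 145.7 CPM against 68.8 ± 13.6 CPM. The transcription factor gene Pou3f1 averaged 21.4 ± 4.33 CPM against 8.53 ± 1.34 CPM, and Zfpm2, a cofactor of GATA factors, 654.1 ± 69.4 CPM against 257.5 ± 39.9 CPM. The peptidase gene Dpp4 averaged 36.8 ± 10.8 CPM against 9.61 ± 3.08 CPM, and Gsta3, a glutathione S-transferase, 31.8 ± 12.1 CPM against 7.15 ± 1.63 CPM. Glra3 had the narrowest spread of these over the libraries.

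Rorb had the lowest ratio of means among the genes that were lower, and was the 1 of 3 measured layer 4 markers to pass. This nuclear receptor of layer 4 neurons stood at 18.3, 67.4, 21.1 and 28.3 CPM against 139.3, 192.0, 251.7 and 176.3 CPM. Col26a1, a collagen, averaged 11.2 ± 1.97 CPM against 48.9 ± 3.98 CPM, which is 0.230 of the level in other excitatory nuclei. Hs3st2, Scube1, Krt12, Phf21b and Cpne7 were 0.318 to 0.479 of that level, and BC006965, at 5.36 ± 2.12 CPM, was 0.237 of it.

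**Figure D4:**
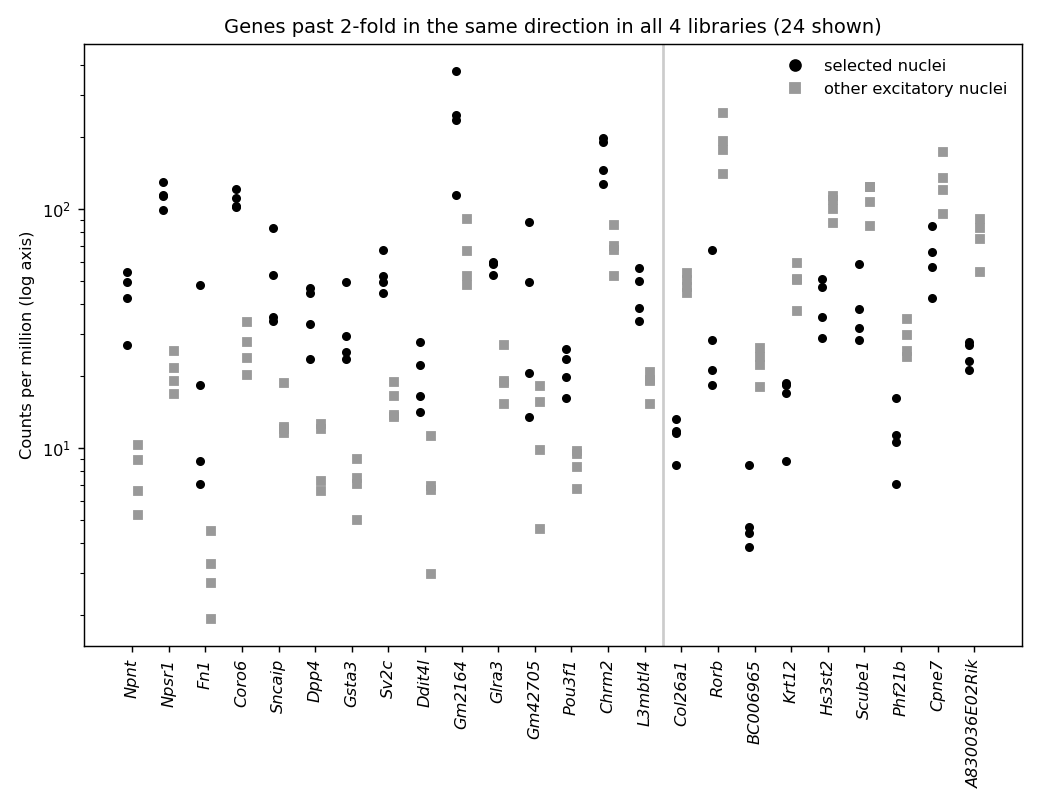
CPM (log axis) of the 15 genes with the highest ratio in the library nearest to equality and of 9 of the genes that were lower, in Tshz2 nuclei (black circles) and other excitatory nuclei (grey squares), 1 point per library. Npsr1 sits at 99.0 to 129.0 CPM in Tshz2 nuclei and below 26 CPM in the others, and Rorb shows the opposite order.

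Among layer markers the set had no single signature. Cux2, a homeobox gene of upper layers, stood at 218.8, 111.3, 77.4 and 90.6 CPM against 141.9 ± 30.0 CPM. Fezf2, which specifies subcerebral projection neurons, stood at 19.3, 11.7, 44.6 and 22.6 CPM against 17.7 ± 3.95 CPM, and Bcl11b (Ctip2), of the same neurons, at 71.3, 61.5, 145.4 and 145.7 CPM against 106.8 ± 11.3 CPM. The corticothalamic genes Foxp2 and Tle4 averaged 25.2 ± 11.5 and 78.3 ± 10.1 CPM against 59.7 ± 13.2 and 130.4 ± 24.7 CPM, with Syt6 kept at 0 by the rule. Markers of layer 6b were close to 0, with Nxph4 not detected.

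Compared class by class at the same 2-fold limit, the fewest genes set the Tshz2 nuclei apart from the other nuclei with 5 or more Tshz2 UMIs. Against those, 5 genes (0.0698% of 7164) were higher in all 4 libraries and 11 (0.154%) lower. The 5 were Sncaip, Sv2c, Fn1, Evc2 and Glis3. Lower were Nxph1 (47.7 ± 24.9 against 240.2 ± 72.4 CPM), the sulfotransferase gene Hs3st4 (290.5 ± 63.9 against 816.0 ± 258.0 CPM), Col26a1 and Wls among others. Against superficial nuclei with 5 or more Cux2 UMIs, 59 genes were higher (0.826%) and 43 lower (0.602%). Against layer 4 nuclei with 5 or more Rorb UMIs, 103 were higher (1.45%) and 71 lower (0.998%). Against corticothalamic nuclei with Syt6 and 5 or more Foxp2 UMIs, 282 were higher (3.89%) and 134 lower (1.85%). Genes that gated a class were left out of its count. The genes named here against the Tshz2 class were chosen after their values were seen. Npsr1 was higher in the Tshz2 nuclei against each of these 3 layer classes, at 113.8 ± 12.3 CPM against 2.58 ± 3.91, 9.89 ± 3.85 and 4.42 ± 2.66 CPM, while the other nuclei with 5 or more Tshz2 UMIs stood between, at 72.99 ± 32.8 CPM.

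Described by gene groups, the set was close to other excitatory nuclei. Of 21 glutamate receptor genes measured, none passed 2-fold in all 4 libraries, and their median log2 ratio was -0.08, beside -0.003 over all 7164 genes. Of 30 potassium and HCN channel genes none passed, with a median of 0.05, and of 35 axon guidance genes besides Robo3 none passed, with a median of -0.16. Among 31 cortical transcription factor genes 2 were higher (Zfpm2 and Pou3f1) and 1 lower (Rorb), against 0.237% and 0.154% of all genes. Of 13 measured genes in a list of neuropeptides and neuromodulator receptors Chrm2 passed. The list did not hold Npsr1, which passed as described above. Of 8 measured genes of glutathione synthesis and use and 4 targets of the factor Nrf2 none passed. These lists did not hold Gsta3, which passed as described above.

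Gclc itself, on chromosome 9 from 77754535 to 77794485 on the plus strand, was counted in the Tshz2 nuclei at 41.4, 36.6, 39.9 and 25.5 CPM (43, 25, 17 and 18 UMIs) and in other excitatory nuclei at 41.6, 32.7, 33.9 and 36.8 CPM. The classes overlapped. Its age change in Tshz2 nuclei was -0.26 ± 0.35 on the log2 scale (SE; edgeR quasi-likelihood test, adjusted p = 0.945). With counting at the 3′ end and no wild-type library the deletion was not measurable. Xist, on the inactive X of females, was high and the Y-linked genes Ddx3y, Uty and Eif2s3y had no UMI in the Tshz2 nuclei of all 4 mice, so the ages did not differ in this respect.

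The ages were then compared on the UMIs summed per mouse. Of 8468 genes tested besides those of the rule, 10 rose from 3 to 6 months (0.118%) and none fell at an adjusted p under 0.05 (edgeR quasi-likelihood test, Benjamini-Hochberg over all genes, 2 against 2 mice), with 611 at an unadjusted p under 0.05. DESeq2 called 14, all rises, of which 5 were among the 10. The edgeR p-values rest on 4 libraries. Each gene had 2 residual degrees of freedom and a median of 11.2 prior ones, so its spread was mostly taken from other genes. The 10 genes were Cadps2, Galntl6, Gm2115, Pde11a, Fras1, Ndst4, 4930419G24Rik, Etv1, Ror1 and Gm12296. The ages did not overlap in any of the 10, as in 37.2% of all genes tested. With the batch number as a block 18 genes rose and none fell.

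Cadps2 stood at 188.0 and 143.5 CPM at 3 months and at 457.4 and 498.0 CPM at 6 months, a log2 change of 1.58 ± 0.21 (SE; edgeR adjusted p = 0.0206). Galntl6, a member of the family that starts O-glycosylation, stood at 460.7 and 344.1 CPM, then at 931.3 and 1139 CPM (1.42 ± 0.19; edgeR adjusted p = 0.0206). Both genes were carried by a wider share of nuclei at 6 months, Cadps2 by 40.2% and 48.5% and then 77.8% and 69.4%. Etv1, an ETS transcription factor of layer 5 neurons, stood at 37.6 and 61.5 CPM and then at 161.9 and 144.3 CPM (1.71 ± 0.28; edgeR adjusted p = 0.0297). It was found in 13.8%, 23.5%, 59.3% and 40.8% of the nuclei. Fras1, of the basement membrane, stood at 77.1, 48.3, 187.7 and 208.0 CPM (1.68 ± 0.26). In other excitatory nuclei Cadps2 stood at 284.5, 250.7, 440.5 and 365.5 CPM and Etv1 at 56.3, 72.1, 98.8 and 86.6 CPM, also without overlap of the ages. Galntl6 stood there at 642.7, 545.6, 1025 and 1169 CPM. Of the 10 genes, all but Gm12296 (26.6, 71.9, 58.5 and 102.4 CPM) lay higher in both 6-month libraries there too.

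Other rises rested on few nuclei. Ndst4, a heparan sulfate modifying enzyme, stood at 36.6, 2.93, 147.8 and 257.5 CPM (log2 change 3.26 ± 0.50; edgeR adjusted p = 0.0268). Its UMIs came from 5, 2, 7 and 11 nuclei, and 29 of the 38 UMIs of 3M-1 from 1 of them. Gm2115 stood at 16.4, 4.39, 68.0 and 108.9 CPM, from 9, 3, 5 and 10 nuclei, with 43 of 77 UMIs of 6M-2 in 1 nucleus. Pde11a, a cyclic nucleotide phosphodiesterase, had 5, 1, 15 and 43 UMIs, and the receptor gene Ror1 had 5, 9, 20 and 44, all 9 of 3M-2 in 1 nucleus. Nuclei with 3 or more UMIs of Ndst4 numbered 3, 0, 4 and 11, of which 2, 0, 3 and 8 also had 3 or more of Gm2115. Excitatory nuclei rich in both Ndst4 and Gm2115 thus occurred inside the set.

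**Figure D5:**
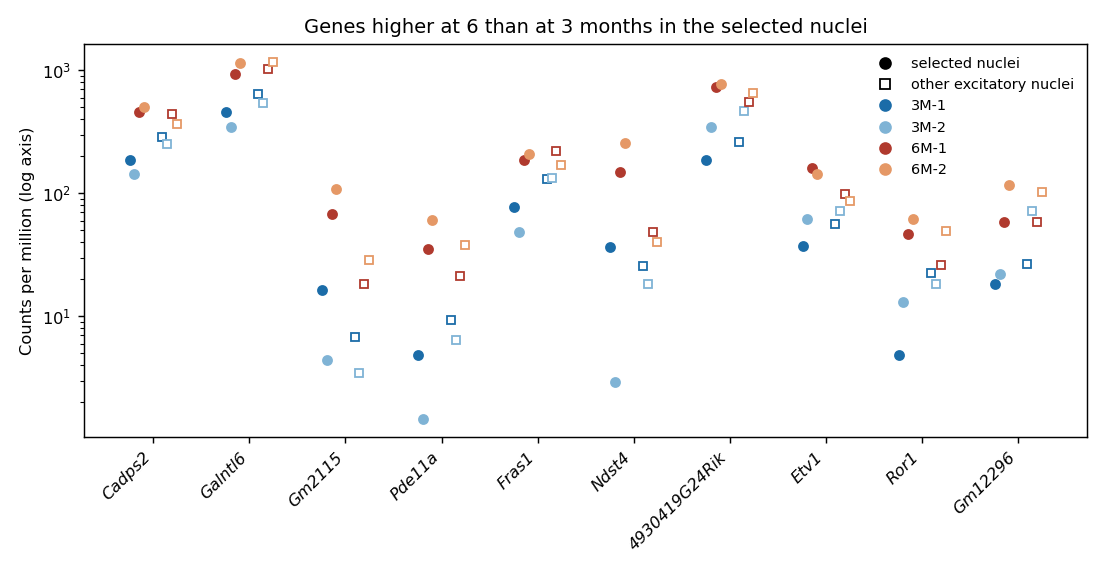
CPM (log axis) of the 10 genes that rose with age, by library (colours), in Tshz2 nuclei (filled circles) and other excitatory nuclei (open squares). In the Tshz2 nuclei both 6-month libraries lie above both 3-month libraries for all 10 genes.

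Several measures beside these genes did not overlap between the ages, as in 37.2% of all genes tested. The median depth of the Tshz2 nuclei was 10227 and 7296.5 UMIs at 3 months and 12603 and 12561 UMIs at 6 months, without overlap, and deeper nuclei show a UMI of a gene more often. The summed near-projecting markers, at 174.5 and 131.8 CPM and then 391.7 and 266.0 CPM, did not overlap either. Bcl11b, at 71.3 and 61.5 CPM and then 145.4 and 145.7 CPM, and Cux2, at 218.8 and 111.3 CPM and then 77.4 and 90.6 CPM, did not overlap between ages, and neither did the share of doublets among nuclei of the excitatory gate or the summed oligodendrocyte markers. By edgeR neither Bcl11b (adjusted p = 0.0955) nor Cux2 (adjusted p = 0.447) was called with age. The share of nuclei with Robo3 or Cpa6 only was lowest in 3M-1. The part of these measures in the result was not tested. When the ages were compared in the 81 nuclei with Robo3 or Cpa6 only, no gene rose and 1 fell of 5297 tested by edgeR, with 248 at an unadjusted p under 0.05 and with Cadps2 at 1.05 (edgeR adjusted p = 0.928) and Galntl6 at -0.08, in a sum of 14 to 29 nuclei per mouse. The 1 gene that fell was Npsr1, at 222.8, 236.7, 31.2 and 5.92 CPM, whose UMIs come from few nuclei. With Tshz2 raised to 10 or more UMIs, Galntl6 alone remained called of the 10. The log2 changes of the other 9 stayed positive, from 1.42 to 3.78, with edgeR adjusted p from 0.0583 to 0.291.

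The genes nearest to a fall did not pass here, but falls were called under other settings. Cpne5, a copine, stood at 50.1 and 45.4 CPM and then at 9.38 and 15.6 CPM (log2 change -1.81 ± 0.39; edgeR adjusted p = 0.11), and the protocadherin gene Pcdh11x at 230.4, 206.4, 110.3 and 104.7 CPM. Fstl4, Thsd7b and Hint3 followed, with adjusted p from 0.129 to 0.156 by edgeR. All 5 passed without the filter on low counts, where 82 genes rose and 19 fell, and without 3M-2, where 148 rose and 50 fell. Of 33 transcription factor genes tested 1 rose (Etv1), beside 0.118% of all genes, and of 21 glutamate receptor, 13 GABA receptor, 36 axon guidance and 30 potassium and HCN channel genes none was called. Of 9 genes of glutathione synthesis and use none was called, with a median log2 change of -0.23 beside 0.005 over all genes, and of 4 tested oligodendrocyte markers none, with a median of 1.36.

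Whether age acted differently in the Tshz2 nuclei than in other excitatory nuclei of the same mouse was tested as an interaction with the library as a block. The age change was more positive for 75 of 18220 genes (0.412%) and more negative for 27 (0.148%). Of the 10 genes called with age in the Tshz2 nuclei, 8 were among the 75. Gm2115 and Pde11a were not. In other excitatory nuclei 1 gene, Gm21860, was called of 19258 (0.00519%; edgeR; 1637 at an unadjusted p under 0.05). The counts of the interaction depend on how the spread is estimated: with its infinite prior degrees of freedom the fit gave no weight to a gene's own spread, DESeq2 called 12 and 7, and without the block edgeR called none, with 638 at an unadjusted p under 0.05.

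Neurod6 and Grik4 did not overlap between ages in the Tshz2 nuclei. Neurod6, a transcription factor of excitatory neurons, stood at 79.0, 106.9, 37.5 and 45.3 CPM in the Tshz2 nuclei and at 29.0, 42.3, 35.3 and 44.2 CPM in the others (interaction -1.28 ± 0.27 on the log2 scale; edgeR adjusted p = 0.00105). The kainate receptor gene Grik4 stood at 138.8, 136.2, 68.0 and 70.7 CPM and at 101.1, 111.1, 102.9 and 149.5 CPM (-1.21 ± 0.22; edgeR adjusted p = 3.35e-05). Cntnap5a, a contactin-associated protein, stood at 349.9, 379.2, 689.7 and 680.5 CPM and at 959.9, 841.3, 987.2 and 692.9 CPM (1.11 ± 0.15; edgeR adjusted p = 1.58e-09). These genes were carried by many nuclei, with no nucleus giving over 26.2% of a library's UMIs. With Robo3 or Cpa6 nuclei only, Cntnap5a kept its interaction at 1.45, while Grik4 stood at -0.43 and Neurod6 at -0.59 without a call.

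By gene group, the interaction was more positive for 4 of 25 glutamate receptor genes (Grik1, Gria1, Grik2 and Grm5) and more negative for Grik4, beside 0.412% and 0.148% of all genes. Of 34 transcription factor genes, Etv1, Bcl11b, Lmo3 and Sox5 were more positive and Neurod6 more negative. Of 43 axon guidance genes Epha5 was more positive and Unc5d and Nell1 more negative, and of 30 potassium and HCN channel genes Kcnk2 was more negative. Gria1, an AMPA receptor subunit, stood at 610.1, 609.1, 891.4 and 1080 CPM in the Tshz2 nuclei and averaged 860.6 ± 96.9 CPM in the others. No gene of glutathione synthesis and use, of Nrf2 targets or of the integrated stress response was called.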

How the data were processed

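Per the file headers and the labels, the authors made raw UMI counts per gene and nucleus with Cell Ranger 7.0.0 on mm10 from 10x 3′ libraries; the deposited counts are not normalized. Of 30784 nuclei 30515 passed the limits on genes and mitochondrial UMIs. The members and gene lists were chosen with earlier results of these data known. Named were the rule's and lists' genes, Gclc, sex-linked genes, the 15 highest and 10 lowest profile ratios, and per test the 10 smallest adjusted p in each direction, or 5 without a call.

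UMIs were summed per library and class and tested with edgeR 4.0.16 in R 4.3.3 (TMM, filterByExpr, quasi-likelihood), 2 mice against 2; the interaction had the library as a block. The age test of the Tshz2 nuclei was checked on simulated counts with the same spread set for every gene. It recovered 39% of 2-fold and 86% of 4-fold changes, with 6 and 1 false calls. The larger spread of genes carried by few nuclei was not simulated, so recovery in these data was not measured. The labels give a batch number, shared by a library of each age, which was taken to pair them; replicate differences at the 2 ages did not deviate together, with correlations of -0.0281 in Tshz2 nuclei and -0.112 in the others. Scrublet (scanpy 1.11.5) called doublets, which were kept. Alternatives were DESeq2 1.42.0, filters, blocks, thresholds and left-out libraries. Positions are from GENCODE on GRCm38, where 32158 of 32285 identifiers were found. The comparison with other nuclei of 5 or more Tshz2 UMIs and the restriction to Robo3 or Cpa6 nuclei were added after the data were seen. Some genes that the naming rule selects are not reported here.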

Additional observations from a re-analysis of the deposited data

Results flagged for a closer look

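A test of the difference itself, the age change in Tshz2 nuclei minus that in other excitatory nuclei of the same mouse, marked 102 genes by edgeR, and the values below are that difference on the log2 scale. The ratio of the 2 classes did not overlap between ages in 96 of the 102, as in 36.7% of all genes tested.

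More positive in the Tshz2 nuclei were Gm32647 (1.68), Ndst4 (2.34), Cntnap5a (1.11), Lypd1 (1.99), the kainate receptor gene Grik1 (1.49), Dgkb (0.97), Tafa1 (0.88), Cadps2 (1.02), Nkain3 (1.07) and the channel gene Trpm3 (0.93). Several of them followed 6M-1: Gm32647 stood at 154.2, 81.99, 682.6 and 162.7 CPM, with 133 of its 291 UMIs of 6M-1 in 1 nucleus, Grik1 at 70.4, 21.96, 319.0 and 52.4 CPM, and Trpm3 at 288.2, 411.4, 999.3 and 267.4 CPM. Ndst4 and Cadps2 were high in both 6-month mice.

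More negative were Thsd7b (-1.75), Nell1 (-1.23), Zbtb20 (-1.20), the sodium channel gene Scn9a (-1.29), Pcdh11x (-1.09), Grik4 (-1.21), the potassium channel gene Kcnk2 (-1.44), Neurod6 (-1.28), the homeobox gene Meis2 (-0.79) and Gm13629 (-1.14). Zbtb20 stood at 104.1, 121.5, 175.9 and 86.3 CPM in the Tshz2 nuclei and at 122.2, 100.4, 293.1 and 299.3 CPM in the others, so its difference lay in the other excitatory nuclei.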

How the results depend on the processing

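The 10 genes called with age in the Tshz2 nuclei became 20 without doublets (2 of them falls), 5 and 1 with 3 and 10 or more Tshz2 UMIs, 46 with 3 second markers (2 falls, 3887 genes tested), 101 without the filter on low counts (19 falls), 18 with the replicate block, 1 (a fall) with Robo3 or Cpa6 nuclei only, and 7 (without 6M replicate 1) to 198 (without 3M replicate 2, 50 falls) with a library left out, with 110 without 3M replicate 1 and 102 without 6M replicate 2 (17 falls each); DESeq2 called 14, of which 5 were shared. The 1 gene called in other excitatory nuclei became 158 by DESeq2, 113 without the filter, 24 with the replicate block, 12 with the crossed block, and 5 and 8 without 6M replicates 1 and 2 to 840 and 2612 without 3M replicates 1 and 2. The 102 genes of the interaction became 66 with 10 or more Tshz2 UMIs, 20 with Robo3 or Cpa6 nuclei only, 19 by DESeq2, 0 without the block on the library, and 46 and 47 without 3M replicates 1 and 2 to 105 with another library left out. A mouse alone in its age was taken to vary like the others.

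The 17 higher and 11 lower profile genes became 34 and 42 at a minimum of 5 CPM, 9 and 6 at 50 CPM, and 32 and 34 with 3 second markers. The lower genes became 32 without doublets and 7 with 3 or more Tshz2 UMIs. With a library left out they numbered 16 to 26 and 14 to 32. The share of Tshz2 nuclei was lower at 6 months in all alternatives, from -0.0718 percentage points with Robo3 or Cpa6 nuclei only to -1.70 without 3M replicate 2. With Robo3 or Cpa6 nuclei only, Galntl6 (-0.0789), Grik1 (-0.0315) and Nkain3 (-0.114) reversed. The cause was not tested.

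With 2 mice per age and 27 nuclei in 6M-1, changes carried by few nuclei could not be told apart from the choice of nuclei.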

Other observations

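Hspa1b, a stress-induced chaperone, had 0, 0, 12 and 0 UMIs in the Tshz2 nuclei of the 4 mice, 3 months first, and the ETS factor gene Erg had 27, 3, 1 and 0; both were called in the interaction by edgeR and were chosen here after their values were seen.

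In other excitatory nuclei the genes nearest to a call after Gm21860 included C4b, a complement gene, at 0.508, 0.668, 4.94 and 7.90 CPM, and St18, of oligodendrocytes, at 23.8, 23.3, 61.8 and 68.9 CPM (edgeR adjusted p = 0.0518 for both). In the Tshz2 nuclei St18 stood at 13.5, 8.79, 25.8 and 34.0 CPM and C4b at 0, 1.46, 4.69 and 1.41 CPM. All 8 oligodendrocyte markers had an unadjusted p under 0.05 in the other excitatory nuclei.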
